A study of Mus musculus with 8 samples.

Results

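The 10 genes described here carry the interleukin-6 (IL-6) signal and the NF-kB signal into the hepatocyte nucleus: Il6ra, Il6st, Osmr, Jak1, Stat3, Socs3, Nfkb1, Rela, Nfkbia and Tnfaip3, of 55413 annotated genes (21938 of them protein-coding). Chromatin accessibility was measured in nuclei of hepatocytes by ATAC-Seq of bulk material, where open DNA is tagged with adapters by the transposase Tn5. Hepatocytes were isolated by collagenase perfusion of the liver from C57BL/6 mice (C57BL/6J in the study's methods) 10 to 12 weeks old, either with undamaged liver (0 h) or at 48, 72 and 96 h after partial hepatectomy (PHx), an operation that takes out part of the liver, after which the rest regrows. Each of the 4 groups had 2 libraries, and the labels name no transgene, deletion or drug in any group. The undamaged mice were not described as sham operated, so the time after PHx and the surgery itself cannot be told apart.

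For every library, the data are a list of peaks, which are stretches of DNA with more Tn5 insertions than the local background. Intervals of the 8 lists that overlapped were merged into 315767 regions, and 220 of these lay in the body of 1 of the 10 genes or within 10 kb of it. The 220 regions comprised 14 within 1 kb of a transcription start site of the gene (promoter regions), 201 distal regions, and 5 regions at start sites of other annotated genes that lie inside or beside Jak1 (4 regions) and Nfkbia (1 region). In each list, the strongest interval by the peak caller's −log10 p received rank 1, so a low rank means a strong peak. Fold enrichment, the height of a peak over the local background, was the measured quantity in the statistical test. Because the libraries are bulk material, fewer cells with an open region and less opening in each cell cannot be told apart.

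IL-6 binds its receptor IL-6Rα, the complex recruits the shared subunit gp130 (encoded by Il6st), and the kinase JAK1 on gp130 phosphorylates STAT3, which enters the nucleus and activates genes that include its own inhibitor Socs3. Tumour necrosis factor and related signals release NF-kB dimers, such as p65 (Rela) with p50 (from Nfkb1), from the inhibitor IκBα (Nfkbia), and NF-kB in turn drives Nfkbia and Tnfaip3, whose product A20 limits the signal. Both pathways are known as part of the priming of hepatocytes early after PHx, before the times sampled here.

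The lists held between 105206 and 154577 distinct intervals, and read depth is unknown. Median fold enrichment over a list was 4.55 and 5.07 at 0 h, 3.95 and 3.73 after 48 h, 4.29 and 3.90 after 72 h and 4.14 and 4.09 after 96 h (replicates 1 and 2), so every PHx list was below both 0 h lists. The 72 h replicate 2 list came from a sequencing run named differently from that of the other 7 and was the longest. In a check of cell type, marker promoters were in every list for 6 of 10 hepatocyte genes, 0 of 7 Kupffer cell and macrophage genes and 0 of 6 leukocyte genes. Of the defining hepatocyte markers, the Hnf4a promoter was listed in all 8 lists, but the Alb promoter only in 3 (both at 0 h and 96 h replicate 1), and the Tat promoter in neither 48 h list. The summed fold enrichment of the hepatocyte marker promoters was 50.3 and 49.0 at 0 h, 23.5 and 36.1 after 48 h, 41.8 and 36.6 after 72 h and 42.8 and 50.2 after 96 h. An unlisted promoter added nothing to these sums, which were not normalised between lists, and 48 h replicate 1 did not list Alb, Ttr, Apob or Tat. Endothelial, stellate and cholangiocyte markers were listed in every library for 3 of 7, 3 of 6 and 2 of 5 genes, while Stab2, Lyve1 and Oit3 among the endothelial and Krt19 among the cholangiocyte markers were unlisted throughout. Summed fold enrichment ranged from 26.9 to 32.0 at 0 h and from 18.7 to 24.1 after PHx for the endothelial list, from 30.2 to 39.2 and from 28.7 to 37.7 for the stellate list, from 24.0 to 30.1 and from 17.5 to 30.0 for the cholangiocyte list, from 0.0 to 2.53 and from 0.0 to 3.66 for the Kupffer cell list, and from 2.78 to 2.83 and from 0.0 to 4.01 for the leukocyte list. The part of these shifts in the values below was not tested.

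All 10 genes had a promoter region listed in all 8 libraries. Of the 220 regions, 54 (24.5%) were in every list and 89 (40.5%) in 1 list only, against 18.2% and 52.5% of all regions. The 54 comprised 11 promoter regions, 41 distal regions and 2 at other genes' start sites within Jak1. Of these 41 distal regions, 26 had their summit in an intron, 9 downstream and 3 upstream of the gene, 2 in an untranslated region (UTR) and 1 in a coding exon, at a median of 20.3 kb from the nearest start site of the gene. The density of regions in every list was highest at the short genes Rela (1.31 per 10 kb), Nfkbia (1.29) and Socs3 (1.25), and lowest at Osmr with 0.369. It did not follow length throughout, with 1.16 at the longer Il6ra but 0.863 at the shorter Tnfaip3. Every window holds a promoter, which weighs more in a short window. Jak1 had the largest number, 12 over its 112916 bases and the flanks, and Il6ra and Nfkb1 had 8 each.

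**Figure D1:**
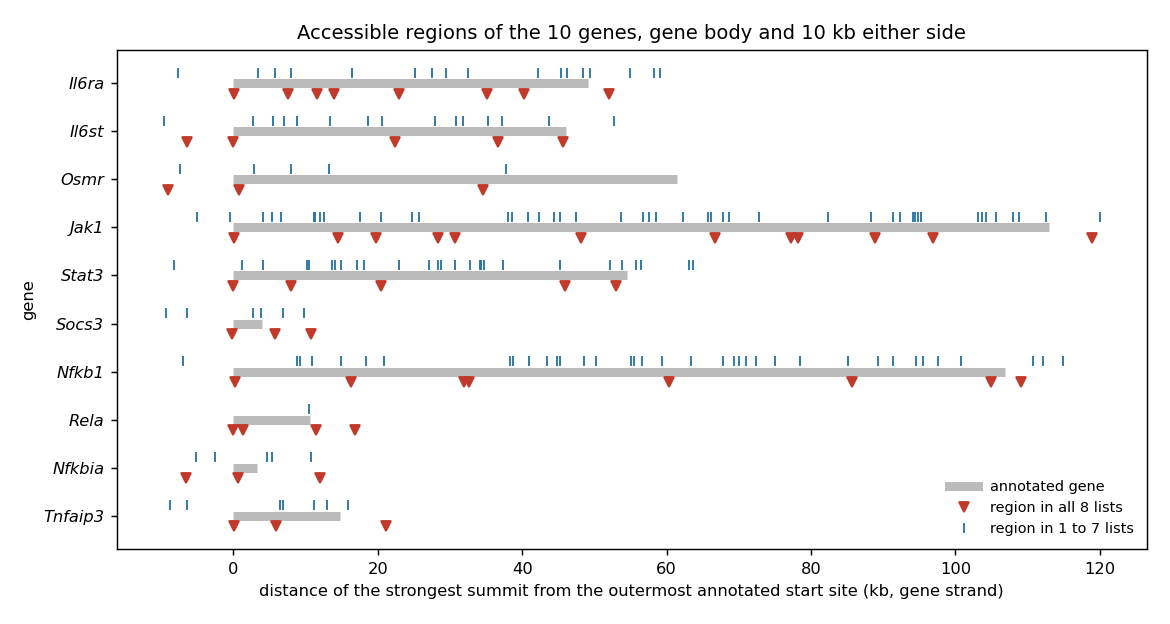
Position of the strongest summit of each of the 220 regions, in kb from the outermost start site along the gene's strand (x axis), for each gene (y axis). Grey bars are the annotated genes, red triangles the 54 regions in all 8 lists and blue ticks the regions in 1 to 7 lists; every gene has a triangle at its start, and Jak1 has the most triangles, 12.

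The first comparison set each time after PHx against 0 h for all regions. Log2 fold enrichment of the 57473 regions in all 8 lists was quantile normalised and fitted by limma with Benjamini-Hochberg adjustment. Limma called 0 of the 54 regions of the 10 genes at 48 h, 72 h and 96 h and over all PHx libraries. The share called of all regions in this test was also 0.0%. A region missing from any list did not enter it and could not be called. The absence of calls therefore does not show that accessibility was unchanged. The study's paper does report significantly altered regions in its bulk time course, by a count test that was not run here. At an unadjusted p under 0.05, the test picked 4 of the 54 regions at 48 h (9.89% of all regions), 3 at 72 h (6.28%), 5 at 96 h (5.68%) and 6 over all PHx libraries (7.75%). These counts moved with single libraries. At 48 h the count was 9 without 0 h replicate 1 but 1 if 0 h replicate 2 was left out, at 72 h it ran from 2 to 4 over the libraries left out (2 without 0 h replicate 2 or either 72 h library), at 96 h it fell to 2 without 96 h replicate 2 or to 3 if 0 h replicate 2 was left out, and over all PHx libraries it was 2 without 0 h replicate 2. The lowest adjusted p among the 54 regions was 0.314 at 48 h, 0.634 at 72 h and 0.805 at 96 h by limma. The median standard error of a log2 difference was 0.273 for a single time over all regions. The median log2 difference of the 10 strongest promoter regions was −0.0045 at 48 h, −0.103 at 72 h and 0.0592 at 96 h, beside medians of −0.00026, −0.0514 and 0.00735 over protein-coding promoters.

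Since no region passed the test, ranks are described by whether both libraries of a time lay on the same side of both 0 h libraries. With 2 against 2 libraries the smallest two-sided exact p is 0.333, so no p accompanies these counts, and the 3 times share the same 0 h libraries. At 48 h, 16 of the 77 regions of the 10 genes that entered ranked higher (20.8%, against 20.7% of all regions) and 22 ranked lower (28.6%, against 27.7%). At 72 h, 12 of 86 ranked higher (14.0%, against 25.9%) and 18 lower (20.9%, against 21.4%). At 96 h, 12 of 83 ranked higher (14.5%, against 20.1%) and 23 lower (27.7%, against 21.7%). In this ordering the shares at 48 h thus lay at the background, and the share ranked higher at 72 and 96 h lay below it, a difference that was not tested. Without 72 h replicate 2, when a single 72 h library had to meet the criterion, 41 of 109 regions ranked higher (37.6%, against 50.1% of all regions) and 31 lower (28.4%, against 25.5%) at 72 h. A region listed in both libraries of 1 group and in none of the other could only be placed on that group's side.

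The split depended on the length of the lists, since a rank in a longer list is a higher percentile. By percentile within the list, 18 of the 77 regions stood higher and 19 lower at 48 h (24.5% and 21.6% of all regions), 28 of 86 higher and 8 lower at 72 h (41.0% and 10.0% of all regions), and 20 of 83 higher and 15 lower at 96 h (28.5% and 13.0%). Among regions placed on 1 side by rank, 32 of 38 at 48 h, 20 of 30 at 72 h and 27 of 35 at 96 h were on the same side by percentile, and 0 turned to the other side. In both orderings the share of the 10 genes' regions that stood higher at 72 and 96 h was below that of all regions. By fold enrichment rank, 14 stood higher and 16 lower at 48 h (18.2% and 20.8%, against 19.8% and 26.7% of all regions). The counts were 14 and 21 at 72 h (16.3% and 24.4%, against 23.8% and 21.8%), and 9 and 19 at 96 h (10.8% and 22.9%, against 18.4% and 21.8%).

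**Figure D2:**
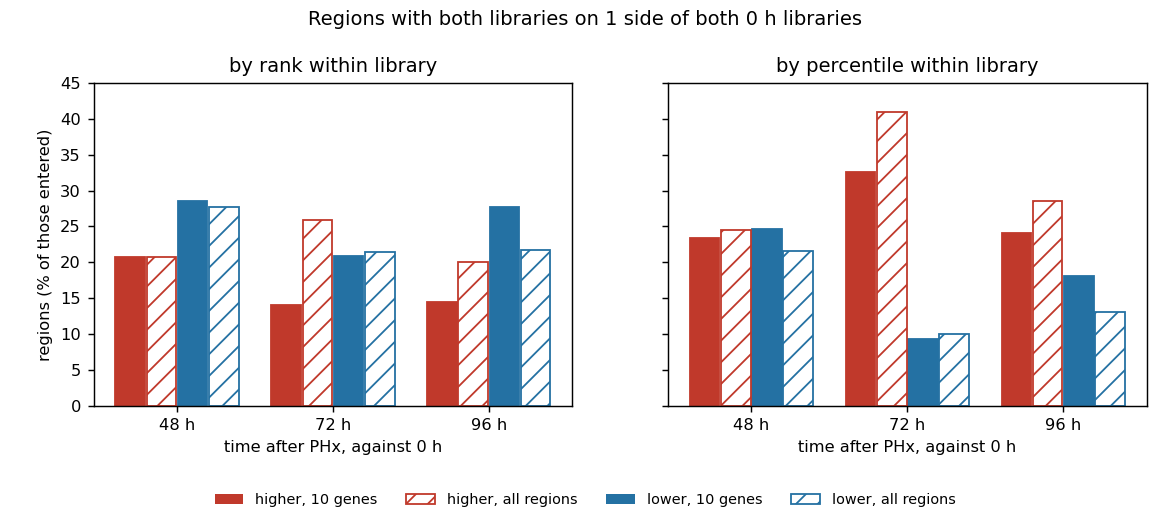
Share of regions (y axis, percent of regions entered) with both libraries of a time (x axis) on 1 side of both 0 h libraries, by rank (left) and by percentile (right). Filled bars are regions of the 10 genes and hatched bars all regions, red for higher and blue for lower; by rank the filled and hatched bars at 48 h are nearly equal (20.8% and 20.7% higher, 28.6% and 27.7% lower).

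Promoters of the 10 genes differed widely in strength. Ordered by median rank over the 8 lists, they ran Nfkb1 (2103), Socs3 (3015), Il6st (4090), Nfkbia (4280), Stat3 (7836.5), Il6ra (11849), Tnfaip3 (12043.5), Rela (12704.5), Jak1 (15931.5) and Osmr (20412), where the median of 13248 protein-coding promoters in all lists was 11949.25. A rank orders single intervals by −log10 p and does not depend on gene length. The Nfkb1 promoter was stronger than 87.6% of those promoters and the Osmr promoter than 31.0%. The rank ranges of every pair of neighbours in this order overlapped, and a single promoter's rank varied between libraries by 1.72-fold (Tnfaip3) to 7.22-fold (Nfkb1).

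**Figure D3:**
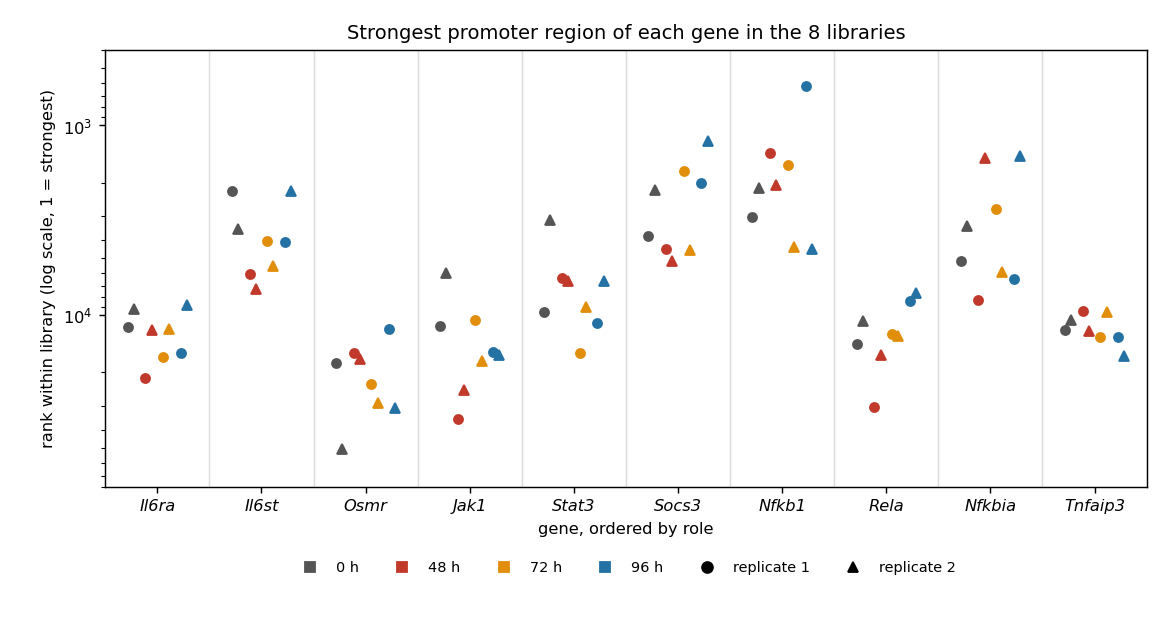
Rank of the strongest promoter region of each gene (x axis) in each library (y axis, log scale, rank 1 at the top), coloured by time with circles for replicate 1 and triangles for replicate 2. Jak1 has both 48 h libraries (35256 and 24898) far below both 0 h libraries (11435 and 5953), whereas each time after PHx overlaps 0 h at Stat3 and Nfkbia.

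Of the 10 strongest promoters, 2 ranked higher (Osmr and Nfkb1) and 5 lower (Il6ra, Il6st, Jak1, Socs3 and Rela) at 48 h, when 17.4% and 28.9% of protein-coding promoters did. At 72 h, 0 ranked higher and 2 lower (Il6ra and Il6st), with 17.1% and 30.5% of protein-coding promoters. At 96 h, 2 ranked higher (Socs3 and Rela) and 2 lower (Jak1 and Tnfaip3), with 15.0% and 19.8%. By percentile the counts were 3 higher and 4 lower at 48 h, 2 (Rela and Tnfaip3) and 0 at 72 h, and 2 and 1 at 96 h, beside 20.6% and 22.7%, 28.1% and 16.3%, and 22.9% and 12.3% of protein-coding promoters. Of the placings by rank, only those of Il6st at 48 and 72 h and of Jak1 at 48 h were kept by fold enrichment rank. The other placings overlapped 0 h in that ordering, that of Jak1 at 96 h included.

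The receptor subunits came first in the pathway. Il6ra (ENSMUSG00000027947.11, chr3:89864059-89913196 on mm10, minus strand) encodes the subunit that binds IL-6. Its promoter region (chr3:89912164-89913801, with the summit in the 5′ UTR and also near the start of Gm42809) ranked 11463 and 9239 at 0 h, 21423 and 11920 after 48 h, 16574 and 11778 after 72 h and 15736 and 8864 after 96 h (replicates 1 and 2 here and below). Both libraries at 48 and 72 h were thus below both 0 h libraries, by a margin that vanished when ordered by percentile, and the log2 difference in fold enrichment was −0.115 ± 0.265 (SE) at 48 h (limma, adjusted p = 0.924). This difference was −0.0111 when 0 h replicate 2 was left out, −0.00776 when 48 h replicate 1 was, and −0.226 when 0 h replicate 1 was. The strongest distal region of Il6ra lay past its 3′ end (chr3:89860849-89861678) and outranked the promoter in every library but 96 h replicate 2, at 5509 and 3862 at 0 h, 15661 and 11573 after 48 h, 4143 and 7260 after 72 h and 9883 and 12511 after 96 h. It stood lower than 0 h at 48 and 96 h in each ordering, with log2 differences of −0.346 ± 0.246 and −0.295 ± 0.246 (limma, adjusted p = 0.686 and 0.959). A region over a coding exon (chr3:89889680-89890838) had the largest difference at 96 h among the 54 regions, 0.914 ± 0.293 (limma, adjusted p = 0.805), where 59176 and 41518 at 0 h became ranks of 40813 and 12968 at 96 h. By percentile and by fold enrichment rank, this region stood higher at 48 and 72 h too. Over all regions of Il6ra that entered, 0 ranked higher and 4 lower of 11 at 48 h, 1 and 5 of 12 at 72 h, and 3 and 7 of 13 at 96 h, against 20.7% and 27.7%, 25.9% and 21.4%, and 20.1% and 21.7% of all regions. By percentile the split at 72 h was 4 higher and 1 lower (41.0% and 10.0% of all regions).

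Il6st (ENSMUSG00000021756.12, chr13:112464070-112510086, plus strand) encodes gp130, the subunit shared by the receptors for IL-6, oncostatin M and related cytokines. The summit of its promoter region (chr13:112463444-112464636) lay 114 bases upstream of a start site, and the region ranked 2221 and 3495 at 0 h, 6085 and 7276 after 48 h, 4073 and 5467 after 72 h and 4107 and 2222 after 96 h. Ranks at 48 and 72 h lay below both 0 h libraries (only at 48 h by percentile) and those at 96 h overlapped, and the log2 difference was −0.0862 ± 0.24 at 48 h (limma, adjusted p = 0.94). In its strongest distal region, at the 3′ end (chr13:112509118-112510114), the ranks were 19232 and 30378 at 0 h, 14065 and 16112 after 48 h, 12105 and 27843 after 72 h and 8997 and 27846 after 96 h, so that only the 48 h libraries stood apart. A weak region upstream of the gene (chr13:112457102-112457791) ranked 57070 and 69160 at 0 h, 78615 and 86263 after 48 h, 108217 and 79152 after 72 h and 109502 and 120501 after 96 h. Every PHx library ranked it below both 0 h libraries, although by percentile only the 96 h libraries did, and its log2 difference at 96 h was −0.773 ± 0.265 (limma, adjusted p = 0.81).

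Osmr (ENSMUSG00000022146.12, chr15:6813577-6874969, minus strand) encodes the partner of gp130 in the oncostatin M receptor. Its promoter region (chr15:6873314-6874905) was the weakest of the 10, with ranks of 17733 and 50561 at 0 h, 15727 and 16989 after 48 h, 23091 and 28947 after 72 h and 11868 and 30857 after 96 h. The 48 h libraries ranked above both 0 h libraries, but not when intervals were ordered by fold enrichment, and the log2 difference was 0.415 ± 0.305 (limma, adjusted p = 0.699). Without 0 h replicate 2, this difference was 0.0395, so the value rests on that library. An intronic region (chr15:6840215-6840631) ranked 37532 and 63647 at 0 h, 13514 and 36920 after 48 h, 56275 and 40204 after 72 h and 16996 and 31424 after 96 h, with log2 differences of 0.748 ± 0.352 at 48 h and 0.784 ± 0.352 at 96 h (limma, adjusted p = 0.516 and 0.875). The strongest distal region, upstream of the gene (chr15:6883894-6885213), ranked 21822 and 28564 at 0 h and between 6343 and 47969 after PHx, with overlap at each time.

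Jak1 (ENSMUSG00000028530.14, chr4:101152367-101265282, minus strand) encodes the tyrosine kinase bound to gp130. The promoter region (chr4:101264281-101265521), with its summit 51 bases inside the gene, ranked 11435 and 5953 at 0 h, 35256 and 24898 after 48 h, 10535 and 17492 after 72 h and 15582 and 16281 after 96 h. The 48 h libraries were the weakest of the 8, and their fold enrichments of 4.33 and 5.42 lay below the 7.4 and 10.8 at 0 h. The log2 difference at 48 h, −0.497 ± 0.265, was the largest of the 10 promoters in size and did not pass the test (limma, adjusted p = 0.565). Leaving out each library in turn gave values from −0.789 to −0.214.

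Within Jak1, an intronic region 88897 bases from the start site (chr4:101176027-101176837) had the lowest p of the 54 regions. Its ranks were 30224 and 30381 at 0 h, 97661 and 135474 after 48 h, 71176 and 46609 after 72 h and 35391 and 45679 after 96 h. Fold enrichment was 9.21 and 8.51 at 0 h, 2.93 and 2.24 after 48 h, 4.35 and 6.49 after 72 h and 8.1 and 5.34 after 96 h. The 48 h libraries were thus the weakest, the 72 h libraries lay in between and 96 h was nearest to 0 h, overlapping it by percentile. The log2 difference was −1.54 ± 0.282 at 48 h (limma, adjusted p = 0.314), −0.681 ± 0.282 at 72 h (adjusted p = 0.756) and −0.298 ± 0.282 at 96 h (adjusted p = 0.967). The strongest distal region of Jak1 (intronic, chr4:101216167-101217588) did not share this course, with ranks of 15851 and 13050 at 0 h, 18545 and 13081 after 48 h, 10091 and 9052 after 72 h and 17842 and 10984 after 96 h, which stood higher at 72 h. Among all regions of Jak1 that entered, 3 ranked higher and 4 lower of 18 at 48 h, 5 and 2 of 20 at 72 h, and 1 and 4 of 19 at 96 h, against the same shares of all regions as for Il6ra. By fold enrichment rank the split at 72 h was 3 higher and 5 lower (23.8% and 21.8% of all regions). By percentile that at 96 h was 4 higher and 2 lower (28.5% and 13.0% of all regions).

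Stat3 (ENSMUSG00000004040.16, chr11:100885098-100939540, minus strand) encodes the transcription factor at the end of this cascade. Its promoter region (chr11:100938711-100940121), with the summit 131 bases upstream of a start site, ranked 9654 and 3149 at 0 h, 6337 and 6565 after 48 h, 15840 and 9036 after 72 h and 11008 and 6637 after 96 h. Each time after PHx overlapped 0 h in each ordering, and the log2 difference at 48 h was 0.147 ± 0.283 (limma, adjusted p = 0.905). The 200 bases around the summit, which lie upstream of the annotated gene, are printed from the plus strand to show the sequence at the peak, and hold no match to the searched letters described below.

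Stat3 promoter region, chr11:100939571-100939770: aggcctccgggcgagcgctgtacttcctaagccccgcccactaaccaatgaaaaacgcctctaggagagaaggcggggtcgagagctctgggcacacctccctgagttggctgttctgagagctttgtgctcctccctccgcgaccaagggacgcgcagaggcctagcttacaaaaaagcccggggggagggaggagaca

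The Stat3 gene body held the 1 region of the 10 genes that was higher at all 3 times by −log10 p rank, of 73 that entered (1.37%, against 4.25% of all regions). By percentile there were 3 such regions (4.11%, against 7.29%), with the exonic Il6ra region above and one upstream of Osmr (chr15:6882218-6882461) besides. By fold enrichment rank there were 2 (2.74%, against 3.51%), those of Stat3 and Il6ra. The Stat3 region, in an intron (chr11:100893309-100894103) and the strongest distal region of the gene, ranked 40579 and 36430 at 0 h, 18386 and 9376 after 48 h, 22381 and 23761 after 72 h and 27358 and 23680 after 96 h. All 6 PHx libraries stood above both 0 h libraries, by rank, by percentile and by fold enrichment rank alike. Its log2 difference was 0.559 ± 0.23 at 48 h (limma, adjusted p = 0.453), 0.198 ± 0.23 at 72 h and 0.217 ± 0.23 at 96 h (adjusted p = 0.951 and 0.975). Another region, in the UTR at the 3′ end of the gene (chr11:100886072-100886789), went the other way, with ranks of 21511 and 9536 at 0 h, 52957 and 45318 after 48 h, 31574 and 38685 after 72 h and 23076 and 22620 after 96 h. Its log2 difference was −0.985 ± 0.289 at 48 h (limma, adjusted p = 0.35) and −0.795 ± 0.289 at 72 h (adjusted p = 0.711), and by percentile the 96 h libraries overlapped 0 h. A further intronic region (chr11:100918920-100919739) ranked 46539 and 34315 at 0 h, 46434 and 64779 after 48 h, 77280 and 96627 after 72 h and 63826 and 98998 after 96 h, and was thus lower at 72 and 96 h (by percentile at 48 h too), with −0.918 ± 0.277 at 72 h and −0.796 ± 0.277 at 96 h (limma, adjusted p = 0.634 and 0.81).

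Counting over the 10 genes, 8 regions lay on 1 side of both 0 h libraries at all 3 times by rank, 1 higher and 7 lower of 73 that entered, where 4.25% and 8.66% of all 82984 regions did. Besides the Stat3, Jak1 and Il6st regions above, these were a region downstream of Socs3 (chr11:117959264-117959630, ranks of 58486 and 57952 at 0 h and 66728 to 75178 in the 4 PHx lists that held it) and 3 weak regions held by both 0 h lists and no other, at Il6ra (chr3:89887951-89888195, ranks of 92893 and 48765), Il6st (chr13:112469507-112469704, 64213 and 80658) and Stat3 (chr11:100904629-100904905, 101860 and 58513). The last 3 could only be placed lower, in any ordering, because an unlisted region counts as last. Among the 70 regions with an interval in at least 1 PHx list, 1 was higher and 4 were lower at all 3 times (1.43% and 5.71%, against 4.29% and 7.86% of all 82257 such regions). Of these 5, only the higher Stat3 region was on the same side at all 3 times by percentile. Of the 73 regions, 4 were lower at all 3 times by percentile (5.48%, against 3.86% of all regions). By fold enrichment rank 8 were (11.0%, against 8.33%), the Jak1 region and the upstream Il6st region above among them.

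**Figure D4:**
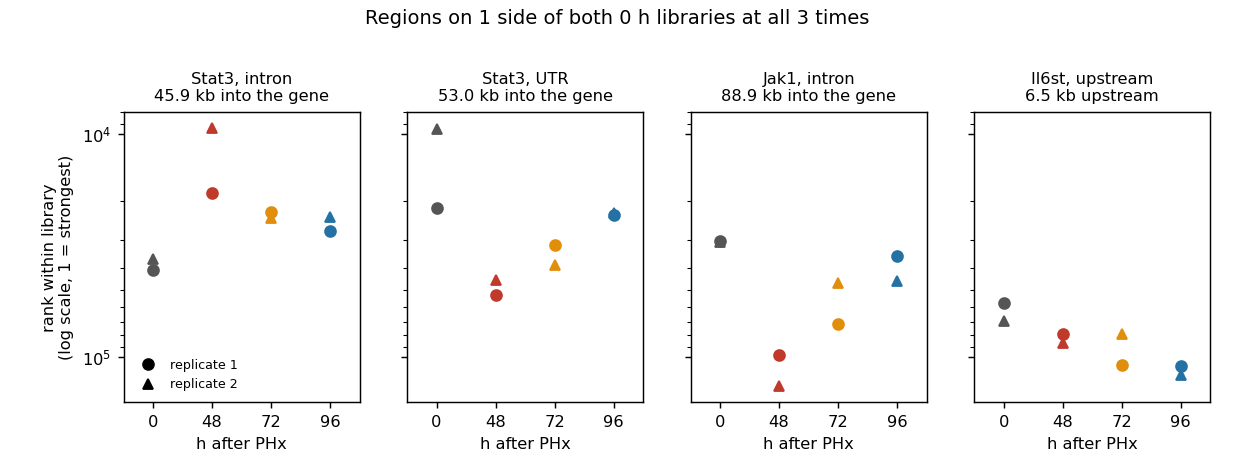
Rank in each library (y axis, log scale, rank 1 at the top) by time after PHx (x axis) of the 4 regions that were in all 8 lists and on 1 side of both 0 h libraries at each time, with circles for replicate 1 and triangles for replicate 2. The Stat3 intronic region is the higher one, with 0 h at 40579 and 36430 and all later libraries between 9376 and 27358, and the Jak1 region is lowest at 48 h (97661 and 135474).

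Among the feedback inhibitors, Socs3 (ENSMUSG00000053113.3, chr11:117966079-117970047, minus strand), whose product blocks JAK1 on gp130, had the second strongest promoter of the 10. In 200 bases around the summit of each region's strongest peak, 4 motifs were sought on both strands: the STAT motif TTCNNNGAA, the NF-kB motif, the AP-1 motif TGANTCA and the C/EBP motif TTGCGCAA. Of the 11 promoter windows, only that of Socs3 held the STAT letters, as did 3.56% of all promoter windows. The match lies past the start site, inside the annotated gene, and 137 of the window's 200 bases are untranslated exon. The site is printed with 10 bases on either side, from the plus strand of mm10 with the match in capitals, because this was the strongest promoter among the feedback targets Socs3, Nfkbia and Tnfaip3.

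Socs3 promoter region, chr11:117969229-117969257: cgccccccgaTTCCTGGAActgcccggcc

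The Socs3 promoter region (chr11:117968726-117970221) ranked 3829 and 2201 at 0 h, 4455 and 5191 after 48 h, 1735 and 4526 after 72 h and 1998 and 1201 after 96 h. Both 48 h libraries were weaker and both 96 h libraries stronger than both 0 h libraries by rank and percentile. By fold enrichment rank within each list both times overlapped 0 h, although the fold enrichments themselves were lower at 48 h. Fold enrichment was 8.49 and 13.1 at 0 h, 7.83 and 6.21 after 48 h, 11.6 and 7.05 after 72 h and 11.0 and 15.3 after 96 h. The log2 difference was −0.169 ± 0.33 at 48 h and 0.395 ± 0.33 at 96 h (limma, adjusted p = 0.906 and 0.959), and the 48 h value changed sign without 0 h replicate 2 (0.151) or without 48 h replicate 2 (0.0694). Past the 3′ end of Socs3, its strongest distal region (chr11:117963100-117963779) ranked 48936 and 18383 at 0 h, 25666 and 31178 after 48 h, 49899 and 59380 after 72 h and 37774 and 18303 after 96 h, which was lower at 72 h by rank alone.

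The other STAT matches lay in distal regions of the receptor genes, in 2 of the 41 distal windows (4.88%, against 5.92% of all windows outside promoters). Both held the same letters, and the windows are printed to show the match beside its flanks.

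Il6ra distal region, chr3:89872838-89873037: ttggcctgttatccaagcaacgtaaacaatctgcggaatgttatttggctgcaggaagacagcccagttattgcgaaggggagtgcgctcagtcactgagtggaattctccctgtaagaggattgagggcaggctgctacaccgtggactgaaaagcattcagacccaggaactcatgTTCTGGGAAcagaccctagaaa
Il6st distal region, chr13:112457493-112457692: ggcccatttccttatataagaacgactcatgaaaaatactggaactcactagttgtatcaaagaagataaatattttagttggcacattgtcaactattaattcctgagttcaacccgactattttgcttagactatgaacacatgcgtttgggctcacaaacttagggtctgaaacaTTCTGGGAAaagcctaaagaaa

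The Il6st window belongs to the upstream region that ranked lower at each time after PHx. The Il6ra window lies in an accessible region with a median rank of 53612.5 (chr3:89872163-89873145). Over all regions of the 10 genes in every list, those at other genes' start sites included, 3 of 54 windows held the STAT letters (5.56%, against 5.27% of all 57473 windows), a share near the background.

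Nfkb1 (ENSMUSG00000028163.17, chr3:135584655-135691547, minus strand) encodes p105, the precursor of the NF-kB subunit p50, and had the strongest promoter. The region (chr3:135690364-135692105) ranked 3052 and 2138 at 0 h, 1402 and 2068 after 48 h, 1611 and 4342 after 72 h and 620 and 4477 after 96 h. The 48 h libraries ranked above both 0 h libraries by a narrow margin, not kept when ordered by fold enrichment, while the 72 and 96 h libraries lay on either side. The log2 difference was 0.188 ± 0.256 at 48 h (limma, adjusted p = 0.859), with values from 0.0644 (without 48 h replicate 1) to 0.313 (without 48 h replicate 2) over the libraries left out. Near the 3′ end, the strongest distal region (intronic, chr3:135586432-135587126) ranked 19240 and 13287 at 0 h, 13212 and 10968 after 48 h, 19828 and 15018 after 72 h and 31328 and 14693 after 96 h. Of the regions of Nfkb1 that entered, 4 ranked higher of 9 at 48 h, 2 of 10 at 72 h and 2 of 11 at 96 h, and 0 ranked lower at each time, beside 20.7%, 25.9% and 20.1% of all regions ranked higher and 27.7%, 21.4% and 21.7% lower. When ordered by fold enrichment, 2 were higher and 0 lower at 48 h, 2 were higher and 2 lower at 72 h, and 1 was higher and 0 lower at 96 h, so the absence of lower regions did not hold at 72 h in that ordering. Of all regions in that ordering, 19.8% stood higher and 26.7% lower at 48 h, against 23.8% higher and 21.8% lower at 72 h, and 18.4% higher and 21.8% lower at 96 h.

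Rela (ENSMUSG00000024927.8, chr19:5637483-5648130, plus strand) encodes p65, the subunit that carries the transactivation domain. Its strongest promoter region (chr19:5636771-5638063) had its summit 9 bases upstream of the start site and ranked 14238 and 10685 at 0 h, 30548 and 16249 after 48 h, 12552 and 12857 after 72 h and 8443 and 7648 after 96 h. The 48 h libraries were weaker and the 96 h libraries stronger than both 0 h libraries, but overlapped them by fold enrichment rank within each list. The log2 differences were −0.148 ± 0.262 and 0.186 ± 0.262 (limma, adjusted p = 0.895 and 0.988). Leaving out 48 h replicate 1 brought the 48 h value to −0.0129, and leaving out 48 h replicate 2 to −0.285. The other promoter region of Rela, with its summit in an intron 1317 bases past the start (chr19:5638414-5639037), went the other way at 48 h. It ranked 54194 and 61970 at 0 h, 42824 and 33477 after 48 h, 33225 and 59853 after 72 h and 32101 and 65052 after 96 h, with a log2 difference of 0.736 ± 0.257 at 48 h (limma, adjusted p = 0.394). Downstream of Rela, the strongest distal region (chr19:5653861-5655227) ranked 28109 and 14209 at 0 h, against 30199 and 28331 at 48 h, lower by rank alone, and overlapped 0 h at 72 and 96 h.

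**Figure D5:**
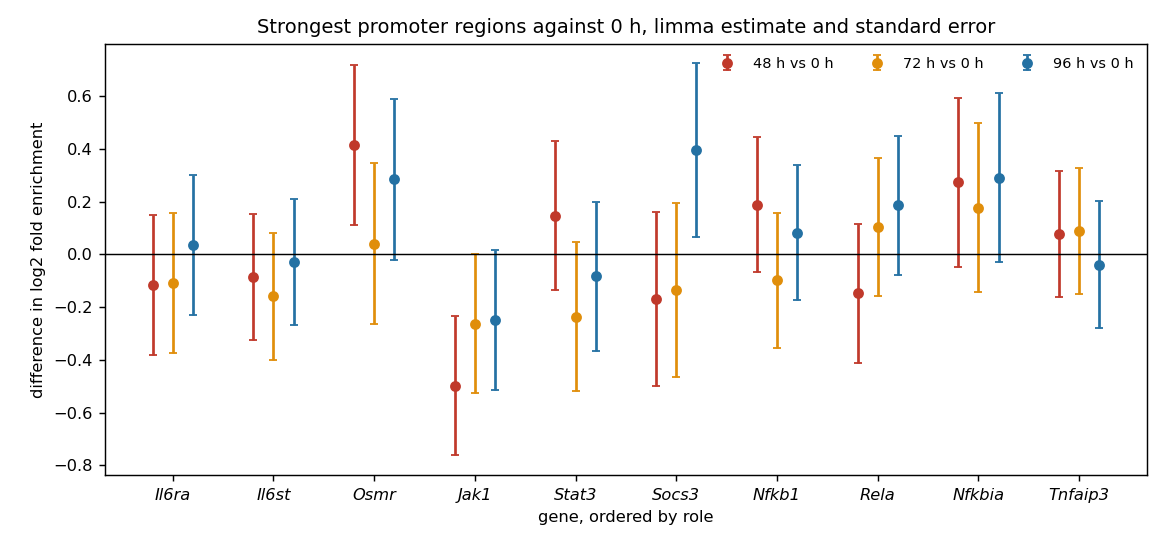
Difference in quantile-normalised log2 fold enrichment from 0 h (y axis) of the strongest promoter region of each gene (x axis) at 48, 72 and 96 h, as limma's estimate (points) with its standard error (bars). The largest is that of Jak1 at 48 h, −0.497 ± 0.265, and none passed the adjusted threshold.

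Nfkbia and Tnfaip3 encode the inhibitors that NF-kB itself induces. The NF-kB motif was matched in the promoter windows of both, 2 of the 11 promoter windows (18.2%, against 6.21% of all promoter windows), and in 2 of 41 distal windows (4.88%, against 3.02% of windows outside promoters). Both promoter matches lie inside the annotated genes, and 182 of the 200 bases of the Tnfaip3 promoter window are untranslated exon. The Nfkbia window and the Tnfaip3 site with its near flanks (29 bases in all) are printed because both genes are targets of the pathway, and the distal windows at Tnfaip3 and Rela as the other matches, all from the plus strand of mm10 with the match in capitals.

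Nfkbia promoter region, chr12:55491954-55492153: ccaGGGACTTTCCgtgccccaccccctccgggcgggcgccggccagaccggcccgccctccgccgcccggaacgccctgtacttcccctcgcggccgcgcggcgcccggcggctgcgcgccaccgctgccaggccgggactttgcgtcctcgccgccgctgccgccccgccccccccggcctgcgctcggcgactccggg
Tnfaip3 promoter region, chr10:19015403-19015431: ttgccaacagGGGGATTTCCgatggaaat
Tnfaip3 distal region, chr10:19009415-19009614: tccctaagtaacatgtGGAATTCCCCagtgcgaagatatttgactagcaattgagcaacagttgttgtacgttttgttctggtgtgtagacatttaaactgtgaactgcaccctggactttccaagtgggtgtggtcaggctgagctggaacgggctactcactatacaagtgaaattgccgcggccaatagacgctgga
Rela distal region, chr19:5648769-5648968: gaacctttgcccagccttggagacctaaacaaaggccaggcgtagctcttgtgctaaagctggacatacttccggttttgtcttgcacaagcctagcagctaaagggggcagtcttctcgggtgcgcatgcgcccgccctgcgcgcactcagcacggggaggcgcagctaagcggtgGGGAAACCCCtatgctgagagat

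The Nfkbia (ENSMUSG00000021025.8, chr12:55489410-55492647, minus strand) promoter region (chr12:55491785-55492942), with its strongest summit in an intron 593 bases past the start, ranked 5194 and 3366 at 0 h, 8336 and 1485 after 48 h, 2764 and 5908 after 72 h and 6405 and 1444 after 96 h. At each time 1 library lay above and 1 below both 0 h libraries, so replicates of a group differed more than the groups. The log2 difference at 48 h was 0.274 ± 0.321 (limma, adjusted p = 0.83) and −0.00667 without 48 h replicate 2. The strongest distal region, upstream of the gene (chr12:55499016-55499682), ranked 37182 and 29925 at 0 h and between 19797 and 43513 after PHx, with overlap at each time. Downstream of the gene (chr12:55480573-55481274), a region ranked 37381 and 40154 at 0 h, 32705 and 39327 after 48 h, 67600 and 73192 after 72 h and 95541 and 67011 after 96 h. It stood lower at 72 and 96 h in each ordering, and at 48 h it overlapped 0 h by rank but stood higher by percentile and by fold enrichment rank. Its log2 differences at 72 and 96 h were −0.531 ± 0.247 and −0.7 ± 0.247 (limma, adjusted p = 0.795 and 0.813).

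The Tnfaip3 (ENSMUSG00000019850.11, chr10:19000910-19015657, minus strand) promoter region (chr10:19014352-19015641) had the smallest spread of the 10. It ranked 11984 and 10573 at 0 h, 9480 and 12103 after 48 h, 12986 and 9627 after 72 h and 13016 and 16300 after 96 h. Only the 96 h libraries stood below both 0 h libraries, by rank alone (by percentile the 48 and 72 h libraries stood above), and the log2 difference was 0.0772 ± 0.24 at 48 h and −0.0389 ± 0.24 at 96 h (limma, adjusted p = 0.947 and 0.998). In the strongest distal region of Tnfaip3 (intronic, chr10:19009170-19009721), which holds 1 of the NF-kB matches printed above, the ranks were 20652 and 18125 at 0 h, 26797 and 20388 after 48 h, 18679 and 13327 after 72 h and 20102 and 9166 after 96 h. Its ranks overlapped 0 h at each time, but by percentile it stood higher at 72 and 96 h, and by fold enrichment rank lower at 48 h and higher at 72 h. Its log2 differences were −0.188, 0.12 and 0.164 at 48, 72 and 96 h (limma, SE 0.241).

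AP-1 letters were in 2 of the 54 windows (3.7%, against 7.5% of all windows), in the Osmr promoter and in a Jak1 intron (chr4:101234150-101234958), and the C/EBP letters in 0 of 54 (0.181% of all windows). The 11 promoter windows were rich in GC, with a median of 70.5% and 22 CpG dinucleotides per 200 bases, against 64.0% and 15 over all promoter windows. The 41 distal windows had a median GC content of 51.0% and 3 CpG dinucleotides, beside 49.5% and 3 over all other windows. The distal regions in every list had a median rank of 41783.5, beside 35120.25 over all such regions outside promoters.

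Of 73 further genes of both pathways, taken from a list of cytokines, receptors, kinases, STAT and NF-kB factors and their regulators, 72 had a promoter interval in at least 1 list and 65 in all 8. At 48 h, 11 ranked higher and 32 lower of 66 that entered (16.7% and 48.5%, beside 17.4% and 28.9% of protein-coding promoters). By percentile 11 were higher and 27 lower (16.7% and 40.9%, beside 20.6% and 22.7%). At 72 h, 12 ranked higher and 23 lower of 70 (17.1% and 32.9%, beside 17.1% and 30.5%). By percentile 19 were higher and 15 lower (27.1% and 21.4%, beside 28.1% and 16.3%). At 96 h, 12 were higher and 11 lower of 69 (17.4% and 15.9%, beside 15.0% and 19.8%). By percentile 15 were higher and 7 lower (21.7% and 10.1%, beside 22.9% and 12.3%). By limma 0 were called at any time, the median log2 difference was −0.0691 at 48 h, −0.0584 at 72 h and 0.0218 at 96 h, while at an unadjusted p under 0.05 there were 2 higher and 0 lower at 48 h, 1 higher and 0 lower at 72 h, and 0 higher and 1 lower at 96 h, of the 65 in all lists, where 9.89%, 6.28% and 5.68% of all regions passed in either direction.

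The 3 largest differences over all PHx libraries were those of Socs2, Tnfrsf1b and Bcl3. The promoter of Socs2, an inhibitor of cytokine signalling related to Socs3, ranked 25339 and 52449 at 0 h, 16668 and 13070 after 48 h, 14953 and 20320 after 72 h and 19786 and 33273 after 96 h, with a log2 difference of 0.587 ± 0.204 (limma, adjusted p = 0.529). That of Tnfrsf1b, a receptor for tumour necrosis factor, ranked 2182 and 1071 at 0 h, 2585 and 4034 after 48 h, 3725 and 4288 after 72 h and 6531 and 6244 after 96 h (−0.411 ± 0.201, adjusted p = 0.667), below both 0 h libraries at each time. That of Bcl3, an atypical IκB protein, ranked 17300 and 19132 at 0 h, 38469 and 26536 after 48 h, 32933 and 54534 after 72 h and 46103 and 13772 after 96 h (−0.392 ± 0.264, adjusted p = 0.774). The promoter of Il6 itself, named here after its values were seen, was unlisted in both 0 h and both 48 h libraries and ranked 100806 and 42524 at 72 h and 65088 and 81836 at 96 h. It thus counted as higher at 72 and 96 h, as did 17.1% and 15.0% of protein-coding promoters. The Tlr4 promoter was unlisted in the same libraries and also counted as higher at 72 and 96 h. Depth is unknown, so neither promoter was shown to be closed at 0 or 48 h.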

How the data were processed

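Bulk ATAC-Seq of hepatocytes, 2 libraries at each of 4 times, was analysed from peak lists. Per the study's methods, the authors trimmed the reads, aligned them to mm10 by Bowtie2, removed PCR duplicates and called peaks by MACS2 in the ENCODE pipeline; 1 list was deposited for each library, and versions are not given in the sources used here. The deposited columns are a fold enrichment (a ratio over local background), a −log10 p, a −log10 q, a summit and a display score, which the authors' caller assigns and which was not used. The lists hold no counts, so depth is unknown and the study's count test was not run.

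Lines sharing an interval were collapsed to the highest −log10 p, and regions were merged at an overlap of at least 1 bp, each taking its strongest interval per list. Log2 fold enrichment of regions in all 8 lists was quantile normalised and fitted with limma 3.58.1 (R 4.3.3) without pseudocount, with adjusted p under 0.05 as the threshold over all regions, after a test on simulated data. A region entered the rank comparison if listed in both libraries of a group, and an unlisted region counted as last. Positions came from GENCODE M21 and sequence from GRCm38.p6, in which 0 intervals passed a chromosome end. Named were each gene's strongest promoter and distal regions (lowest median rank), up to 10 regions on 1 side of 0 h at all 3 times, and 3 genes of the wider list by size of difference, and other regions with an unadjusted p under 0.05 were named after their values were seen. The genes and lists were chosen with earlier results of these data known. The study's paper names separate hepatocyte preparations at 0 and 48 h as its biological replicates, in larger number than the 2 libraries used here, but the labels do not tie libraries to mice, so p-values may measure only the spread between libraries. Alternatives covered the peak threshold, list length, overlap, flank, scaling, measure, ordering, a replicate block and each library left out.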

Additional observations from a re-analysis of the deposited data

Results flagged for a closer look

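At 2 promoters the libraries of different times lay on opposite sides of both 0 h libraries by rank. The Socs3 promoter had both 48 h libraries below and both 96 h libraries above, and its log2 difference from 0 h was higher at 96 h than at 48 h by 0.564. The Rela promoter did likewise, with 0.334 between the 96 h and the 48 h difference. In neither case was the difference between the times tested, and both times share the 0 h libraries. By fold enrichment rank within each list, both promoters overlapped 0 h at both times.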

How the results depend on the processing

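By limma, 0 regions of the 10 genes were called under every alternative run, for each time and over all PHx libraries. Libraries with the same replicate number did not deviate together across regions after normalisation. The correlations of replicate differences between groups ran from −0.0553 to 0.125. The labels do not say whether libraries were prepared in pairs, and this check cannot tell. With the replicate number as a block, 0 regions were called, as without it, with 5 at an unadjusted p under 0.05 at 48 h. Of 255 repeated values, 218 kept their direction, side of the threshold and size of count.

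The counts by rank moved most. Among the 50000 strongest intervals, 7 regions were higher and 10 lower of 36 that entered at 48 h (19.4% and 27.8%, against 22.8% and 27.0% of all regions), 5 higher and 7 lower of 36 at 72 h (13.9% and 19.4%, against 22.9% and 24.7%), and 7 higher and 8 lower of 37 at 96 h (18.9% and 21.6%, against 18.6% and 21.8%). The share that stood higher at 96 h was thus at the background in this setting. By percentile they were 28 and 8 of 86 at 72 h and 20 and 15 of 83 at 96 h, with the shares of all regions given above. Leaving out a library, when fewer libraries had to meet the criterion, gave 23 to 54 higher and 31 to 52 lower of 92 to 109 regions at 48 h, 27 to 51 and 30 to 50 of 101 to 115 at 72 h, and 21 to 48 and 33 to 53 of 96 to 116 at 96 h. The shares higher ran from 24.3% to 49.5%, 25.2% to 44.3% and 20.7% to 41.4%, against 21.8% to 55.1%, 29.4% to 55.5% and 22.9% to 52.5% of all regions. The shares lower ran from 28.4% to 55.4%, 26.1% to 49.5% and 32.7% to 55.2%, against 26.6% to 49.7%, 23.2% to 44.7% and 24.5% to 45.8%.

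Of the promoter differences at 48 h, those of 4 genes changed sign, all of them smaller than their standard error. That of Stat3 (0.147) was −0.0719 with −log10 p as the measure and −0.159 without 0 h replicate 1 (from −0.159 to 0.444 over libraries left out). That of Socs3 (−0.169) was 0.151 if 0 h replicate 2 was left out and 0.0694 without 48 h replicate 2 (from −0.496 to 0.151). That of Nfkbia (0.274) was −0.00667 without 48 h replicate 2 (to 0.557), and that of Tnfaip3 (0.0772) was −0.0866 without 48 h replicate 1 (to 0.241). The other 6 kept their sign, and that of Il6st (−0.0862) was −0.0516 if 48 h replicate 2 was left out and −0.121 if 48 h replicate 1 was. In these fits the lone library of a group was assumed to vary like the other groups, and the cause of each change was not tested. Depth is unknown, so an unlisted region was not shown to be closed.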
